A study of Rattus norvegicus with 36 samples.

Results

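The infralimbic cortex (IL) and the prelimbic cortex (PL) are neighbouring areas of the rat medial prefrontal cortex, and the comparison described here is between them in rats that had stopped taking cocaine 4 weeks earlier. The members were the 8 small RNA libraries of the abstinence group, 4 from the IL and 4 from the PL of the same 4 rats, out of 36 libraries in all, and every miRNA that passed the filter on low counts was compared. The abstinence rats were male heterogeneous stock (HS) rats, an outbred laboratory stock, that self-administered intravenous cocaine at 0.5 mg/kg per infusion in short and then in long daily sessions and were then kept from the drug for 4 weeks. The withdrawal rats (4 males) had the same cocaine history and were killed 16 h after it by the labels, while the study's methods give a slightly longer interval, and the naive rats (4 males) took no cocaine. The groups were of matched age at the start of self-administration, so the abstinence rats were older at death than the withdrawal rats. The cocaine rats also had catheter surgery and behavioural tests that included foot shock, which the study does not describe for the naive rats. In comparisons between groups, these differences cannot be told apart from cocaine or the time since it. Both areas were cut by hand from thick frozen sections by anatomical landmarks, so each library holds all cell types of the piece. In such bulk tissue, fewer cells of a type and less RNA per cell cannot be told apart. In the text the 4 abstinence rats are called M170, M363, M472 and M456.

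A microRNA (miRNA) is a short RNA cut from a hairpin precursor, and its bases 2 to 8, the seed, pair with messenger RNAs that are then repressed. The hairpin gives an arm from each side, named 5p and 3p, and miRNAs that share a seed form a family with overlapping targets. In the rat, the IL and PL both project to the nucleus accumbens (NAc), and work in rats has tied the PL mainly to the drive to seek cocaine and the IL to its suppression after extinction.

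Library totals ranged from 6192155 to 11150270 miRNA counts in the 4 IL libraries and from 9595922 to 11852582 in the 4 PL libraries. The IL library was the smaller one in each of the 4 abstinence rats. The log2 ratio of the IL total to the PL total was −0.63 in M170, −0.22 in M363, −0.02 in M472 and −0.51 in M456. It lay between −0.94 and −0.14 in the withdrawal rats and between −0.07 and 0.33 in the naive rats. The RNA integrity number differed by −0.4 to 0.6 between the IL and PL of an abstinence rat, with no single direction. The neuronal miRNAs miR-124-3p, miR-128-3p and miR-9a-5p were at 43127 counts or more in all 8 libraries, so the libraries carried the miRNAs of brain tissue, while miR-208a-3p of heart muscle had 0 counts in all 8.

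The sequences the results turn on are shown here as RefSeq gives them for the rat assembly GRCr8, which is not the build the counts were made on, with the seed in capitals. The first set holds the let-7 family, 8 miRNAs that share 1 seed and yet lay on both sides of zero in the comparison of IL with PL:
let-7e-5p: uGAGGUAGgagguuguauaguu
let-7b-5p: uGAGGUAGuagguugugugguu
let-7c-5p: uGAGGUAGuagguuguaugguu
let-7d-5p: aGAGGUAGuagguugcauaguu
let-7a-5p: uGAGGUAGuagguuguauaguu
let-7i-5p: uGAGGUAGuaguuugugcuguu
miR-98-5p: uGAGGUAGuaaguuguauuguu
let-7f-5p: uGAGGUAGuagauuguauaguu
The second set shows both arms of a hairpin that lay in opposite directions, both from the miR-128-1 locus:
miR-128-1-5p: cGGGGCCGuagcacugucuga
miR-128-3p: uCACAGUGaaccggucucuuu
The third set holds miRNAs that were higher in the IL and are rich in G and C:
miR-501-3p: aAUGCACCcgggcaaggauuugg
miR-1249: aCGCCCUUcccccccuucuuca
miR-760-3p: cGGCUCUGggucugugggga
miR-125a-3p: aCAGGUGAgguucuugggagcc
miR-92b-3p: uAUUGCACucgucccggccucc
The fourth set holds miRNAs that were lower in the IL, among them pairs with 1 seed:
miR-146b-5p: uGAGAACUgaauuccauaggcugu
miR-26a-5p: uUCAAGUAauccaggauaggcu
miR-26b-5p: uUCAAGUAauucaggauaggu
miR-195-5p: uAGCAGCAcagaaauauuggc
miR-16-5p: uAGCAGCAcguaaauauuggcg
miR-384-5p: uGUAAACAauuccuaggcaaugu
miR-30a-5p: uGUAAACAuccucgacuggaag
miR-30e-5p: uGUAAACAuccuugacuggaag

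Of 457 miRNAs tested between the IL and PL of the abstinence rats, 93 (20.4%) had a fold change of at least 1.5 and an unadjusted p under 0.05, the thresholds the study used. Of these, 49 (10.7% of those tested) were higher in the IL and 44 (9.63%) were lower. None (0%) reached an adjusted p of 0.05 by edgeR's quasi-likelihood test with Benjamini-Hochberg adjustment, where the lowest adjusted p was 0.102 and 125 miRNAs had an unadjusted p under 0.05. Limma-voom on the same design also gave 0, and DESeq2 gave 44. The log2 fold change of IL over PL had a median of 0.82 among the 49 and −0.84 among the 44, and of 0.02 over all 457. Among those with a mean of at least 10 counts in both areas, the change ranged from 0.59 for miR-935 to 1.61 for miR-483-5p in the higher group (44 miRNAs) and from −1.37 for miR-135a-5p to −0.59 for miR-344b-2-3p in the lower group (42 miRNAs). The 4 IL levels and the 4 PL levels did not overlap for 50 miRNAs (10.9%), of which 29 lay above and 21 below.

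The number of miRNAs at an adjusted p under 0.05 differed between fits, and the cause was not tested. With the 24 IL and PL libraries alone, 41 of 427 miRNAs had an adjusted p under 0.05, 39 of them among the 93. With only the 8 libraries of the comparison, 145 of 393 did, 83 of them among the 93, although this fit had few residual degrees of freedom. With the abstinence libraries of all 3 areas the number was 0 of 419, with a lowest adjusted p of 0.181. A set of 29 miRNAs was called by DESeq2, by the fit of the 24 IL and PL libraries and by the fit of the 8 libraries. The set held miR-128-1-5p, miR-501-3p, miR-1249 and miR-125a-3p among those higher in the IL, and miR-27b-5p, miR-146b-5p, miR-26a-5p and let-7f-5p among those lower. These 3 fits share the 8 libraries of the comparison, so the overlap of their calls is no independent evidence.

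The rats did not contribute equally. Over the 216 miRNAs with a mean of at least 5 log2 CPM (counts scaled to the library total) across all libraries, the SD of the differences between IL and PL was 0.80 in M170, 0.49 in M363, 0.28 in M472 and 0.81 in M456. Over all 457 miRNAs, 142 (31.1%) had the same sign of the difference in all 4 rats, 76 of them higher and 66 lower in the IL. Of the 10 miRNAs of lowest p in each direction, 7 higher and 6 lower ones had 1 sign in all 4 rats. Without M472 all 10 did in each direction. The 93 miRNAs were chosen in these same rats. They had the sign of their fold change in 92 cases in M170, 90 in M363, 67 in M472 and 89 in M456. A fold of 1.5 in that direction was reached by 86, 62, 14 and 78 of them. Without M170, 40 miRNAs passed the study's thresholds, 29 of them among the 93, and 45 had an unadjusted p under 0.05. Without M472, 124 passed the thresholds, 88 of them among the 93, and 11 reached an adjusted p of 0.05 by edgeR. Among the miRNAs described next, miR-320-3p, miR-125a-3p, miR-23b-5p, miR-760-3p, miR-664-2-5p and miR-433-3p no longer passed without M170 (0.55 to 0.70), miR-186-5p without M363 (−0.57), miR-26a-5p without M456 (−0.57), and miR-344b-2-3p without M170 (−0.48) or M363 (−0.55).

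**Figure D1:**
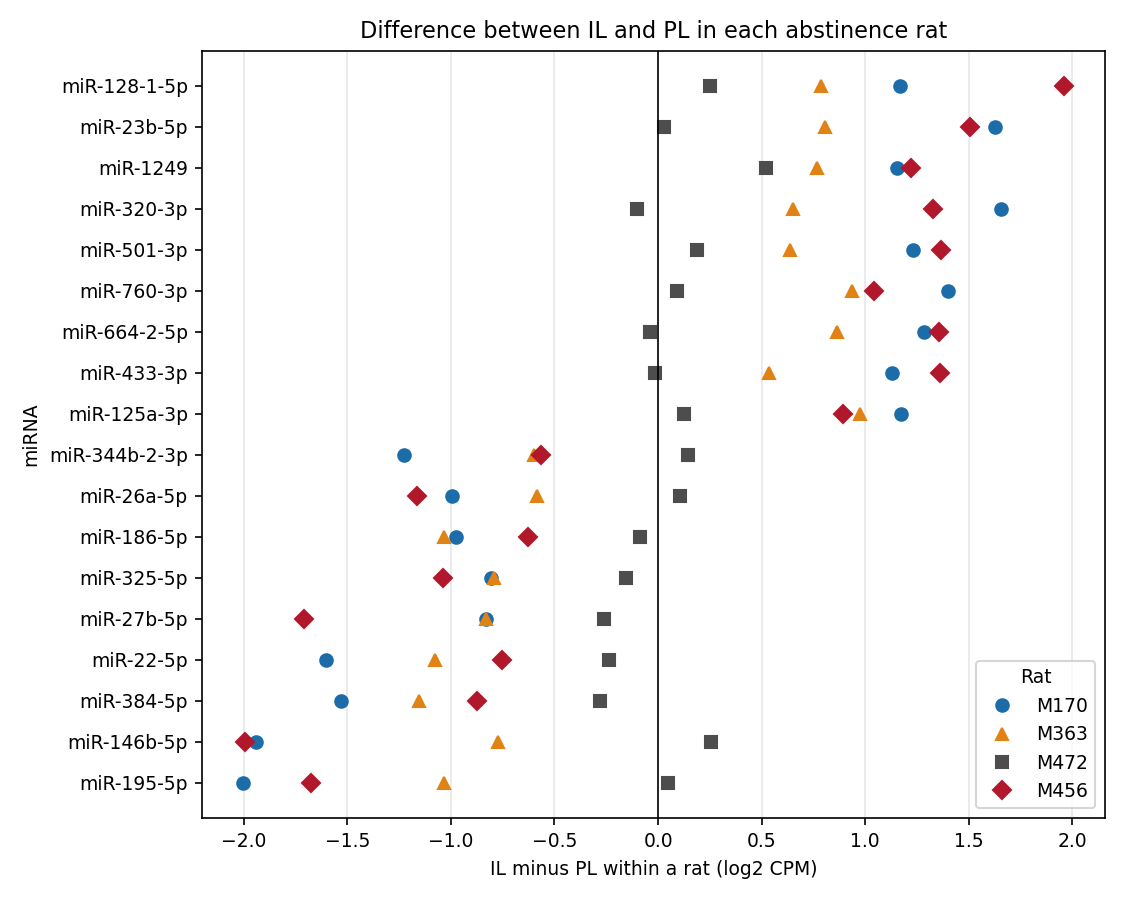
The horizontal axis gives the IL level minus the PL level within a rat in log2 CPM, for the 18 of the 20 miRNAs of lowest p that had at least 10 counts in all 8 libraries, with 1 point per abstinence rat. The squares of M472 sit mostly near 0, though that of miR-1249 lies well above it. The points of M170 and M456 are mostly the farthest from 0.

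Among the miRNAs higher in the IL, miR-128-1-5p had the lowest p. It is the 5p arm of a hairpin within the span of R3hdm1 (GRCr8 chromosome 13, 42251898 to 42251918, plus strand). Its level in the IL was 4.94, 5.22, 4.75 and 5.58 log2 CPM in M170, M363, M472 and M456, and in the PL of the same rats 3.77, 4.44, 4.50 and 3.62. Every IL library lay above every PL library, and M472 had the smallest gap. The log2 fold change was 1.13 (SE 0.28, adjusted p = 0.102 by edgeR). The 3p product that the same hairpin and its paralogue share, miR-128-3p, is a neuronal miRNA that restrains excitability in the mouse, and it was the most abundant miRNA of these libraries. It made up 14.6% of all counts in the IL of M170 and 32.3% in its PL, 24.4% and 29.5% in M363, 26.9% and 25.03% in M472, and 15.4% and 33.2% in M456. The share was lower in the IL in 3 rats and slightly higher in M472, and the log2 fold change was −0.69 (SE 0.30, adjusted p = 0.146). The 5p arm of the paralogue, miR-128-2-5p, which has the same seed as miR-128-1-5p, stood at 0.39 (SE 0.24, adjusted p = 0.29).

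miR-501-3p, encoded within the span of the chloride transporter gene Clcn5 on the X chromosome, stood at 5.83, 5.44, 4.53 and 5.54 log2 CPM in the IL of M170, M363, M472 and M456, against 4.60, 4.81, 4.34 and 4.18 in the PL. The IL was the higher in each rat, while the ranges overlapped through the low IL value of M472. The log2 fold change was 0.92 (SE 0.24, adjusted p = 0.102), and miR-500-3p, which has the same seed, stood at 0.71 (SE 0.33, adjusted p = 0.169). miR-1249 had IL levels of 9.26, 8.84, 8.51 and 9.37 log2 CPM and PL levels of 8.11, 8.07, 7.99 and 8.14. The PL values were close together and all IL values lay above them, with a log2 fold change of 0.94 (SE 0.28, adjusted p = 0.102). miR-125a-3p, the passenger arm of the miR-125a hairpin, had IL levels of 8.15, 7.76, 7.13 and 7.94 log2 CPM and PL levels of 6.98, 6.78, 7.01 and 7.04, which did not overlap either. Its other arm, miR-125a-5p, the second of the most abundant miRNAs, stood at 0.30 (SE 0.16, adjusted p = 0.227).

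The remaining miRNAs of lowest p on the higher side were miR-320-3p (0.94), miR-23b-5p (1.05), miR-760-3p (0.89), miR-664-2-5p (0.89), miR-433-3p (0.82) and miR-653-3p (2.61). miR-653-3p rested on 12, 10, 7 and 1 counts in the IL and 2, 1, 4 and 0 in the PL, so its size is poorly fixed. miR-433-3p belongs to the imprinted Dlk1-Dio3 domain on chromosome 6, whose miRNAs are expressed from the maternal chromosome. For miR-320-3p, miR-664-2-5p and miR-433-3p the difference was between −0.10 and −0.02 in M472 and above 0.5 in the other 3 rats. M472 thus did not share the direction of these 3 miRNAs.

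Among the miRNAs lower in the IL, miR-27b-5p had the lowest p. Its level was 3.31, 3.51, 3.79 and 2.80 log2 CPM in the IL of M170, M363, M472 and M456 and 4.14, 4.34, 4.05 and 4.50 in the PL. All IL values lay under all PL values, and the log2 fold change was −0.91 (SE 0.25, adjusted p = 0.102). Its hairpin lies 240 bases from that of miR-23b on chromosome 17 of GRCr8, within the span of Aopep, and the cluster also holds a copy of miR-24. miR-23b-5p, from the same cluster, was at 4.97, 4.57, 3.69 and 4.47 log2 CPM in the IL and 3.34, 3.77, 3.66 and 2.97 in the PL, the opposite direction. Of the 11 tested miRNAs of the miR-23, miR-27 and miR-24 clusters, 1 was higher and 2 were lower past the thresholds (10.7% and 9.63% over all miRNAs), with a median of −0.31. miR-24-3p, with a log2 fold change of −0.58 (adjusted p = 0.102), fell just under the fold threshold.

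miR-146b-5p, a feedback inhibitor of inflammatory signalling, was at 9.52, 10.02, 10.96 and 9.51 log2 CPM in the IL of M170, M363, M472 and M456 and at 11.46, 10.79, 10.70 and 11.51 in the PL. The difference was close to −2 in M170 and M456 and had the opposite sign in M472, for a log2 fold change of −1.11 (SE 0.32, adjusted p = 0.102). miR-146a-5p, which has the same seed and is the member of the pair most tied to microglia, stood at −0.19 (SE 0.17, adjusted p = 0.446). miR-325-5p was at 7.38, 7.28, 8.07 and 7.11 log2 CPM in the IL and 8.18, 8.07, 8.23 and 8.15 in the PL. The highest IL value, that of M472, came level with the lowest PL value at this precision, and the gap within a rat was smallest in M472, at 0.15. Its log2 fold change was −0.72 (SE 0.22, adjusted p = 0.102). Its X-linked neighbour miR-384-5p, a member of the miR-30 seed family that acts in synaptic plasticity in rodents, stood at −0.99 (SE 0.33, adjusted p = 0.105). The other arm, miR-384-3p, passed the thresholds in the opposite direction, at 1.59 (SE 0.69, adjusted p = 0.146). It rested on 8, 25, 10 and 66 counts in the IL of M170, M363, M472 and M456 and 11, 4, 7 and 14 in the PL.

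Several seed families had more than 1 member past the thresholds on the lower side, beside 9.63% lower and 10.7% higher over all miRNAs. These families were singled out after their values were seen. Both measured miR-26 members were past the thresholds, miR-26a-5p at −0.68 (SE 0.22) and miR-26b-5p at −0.91 (SE 0.32). They sit in introns of the related phosphatase genes Ctdspl and Ctdsp1 in mammals, and RefSeq places both within these spans in the rat. In the miR-15 family, miR-195-5p stood at −1.19 (SE 0.36) and miR-16-5p at −0.97 (SE 0.34), both past the thresholds, while miR-497-5p, miR-322-5p and miR-15b-5p, at −0.40, −0.31 and 0.58, were not. In the miR-30 family, miR-384-5p, miR-30e-5p (−0.73) and miR-30a-5p (−0.61) were past the thresholds. miR-30c-5p (−0.46), miR-30b-5p (−0.39) and miR-30d-5p (−0.18) were not. The family with the seed of miR-92 went the other way for 2 of its 4 members, miR-92a-3p at 0.61 and miR-92b-3p at 0.59. miR-22-5p stood at −0.99 and its other arm miR-22-3p at −0.52 (adjusted p = 0.108). miR-186-5p, within the span of Zranb2, stood at −0.69, and miR-344b-2-3p, of a rodent-specific group, stood at −0.59, only just past the fold threshold.

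miR-29a-5p, the passenger arm of miR-29a, had 0 counts in all 4 IL libraries and 3, 2, 8 and 7 counts in the PL of M170, M363, M472 and M456. Set against a floor of 3 counts over the 4 IL libraries together, its 20 PL counts gave a 5.36-fold lower level in the IL. The floor allows for counting error in the IL only, and the 20 PL counts were taken as exact. Its guide arm, miR-29a-3p, stood at −0.17 (SE 0.16, adjusted p = 0.472).

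**Figure D2:**
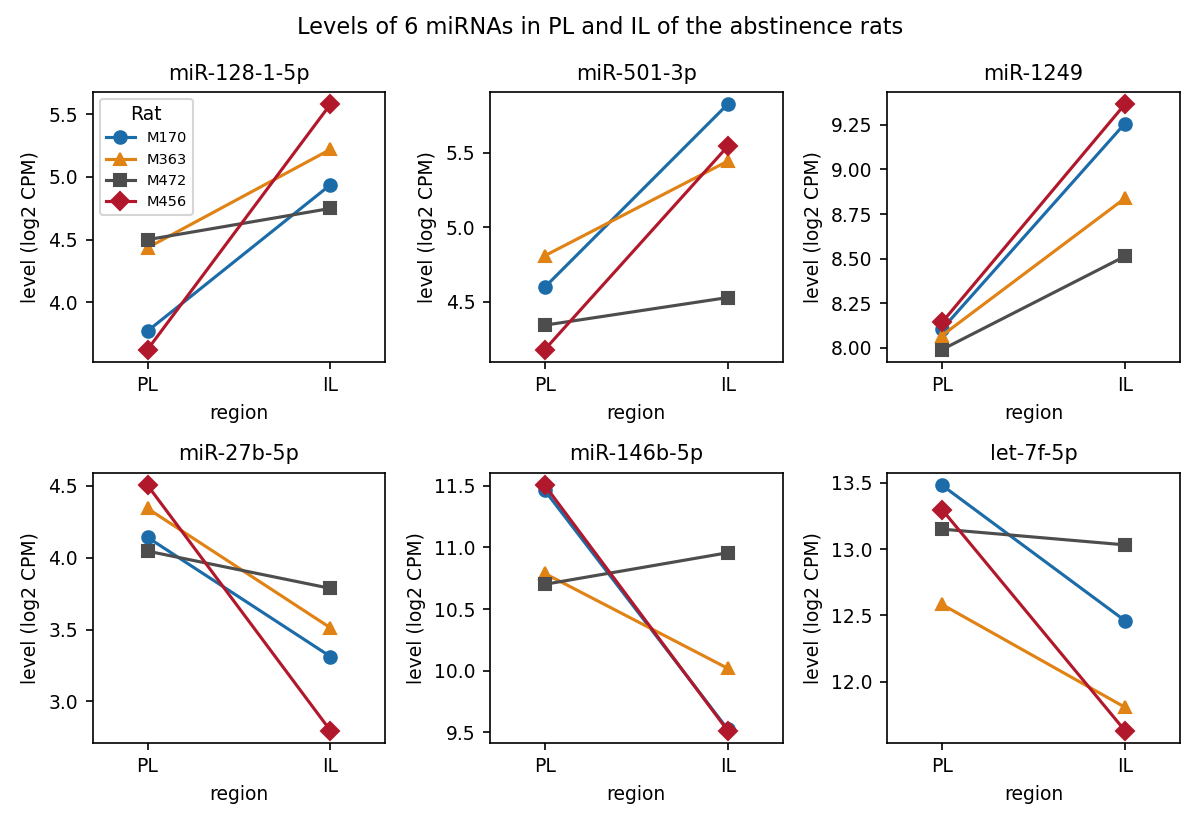
Each panel gives the level of 1 miRNA in log2 CPM in the PL and the IL, with a line joining the 2 areas of each abstinence rat. The lines rise from PL to IL in the upper panels and fall in the lower ones, except for miR-146b-5p in M472, which goes from 10.70 to 10.96.

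The let-7 family, regulators of developmental timing and neuronal differentiation that share the seed printed above, divided between the directions. let-7f-5p was at 12.46, 11.81, 13.03 and 11.63 log2 CPM in the IL of M170, M363, M472 and M456 and at 13.48, 12.58, 13.15 and 13.30 in the PL. It was the lower in the IL of each rat, with a log2 fold change of −0.94 (SE 0.33, adjusted p = 0.105). miR-98-5p, 611 bases from a copy of let-7f on the X chromosome and like it within the span of Huwe1, stood at −0.79 (SE 0.29, adjusted p = 0.108). let-7i-5p stood at −0.57 (SE 0.22, adjusted p = 0.123), just under the fold threshold. let-7e-5p was at 13.75, 13.26, 13.25 and 13.56 log2 CPM in the IL and 12.98, 12.73, 12.94 and 12.84 in the PL, all IL values above all PL values, with a log2 fold change of 0.58 (SE 0.19, adjusted p = 0.102) that also missed the fold threshold. let-7b-5p stood at 0.57, let-7c-5p at 0.42, let-7d-5p at 0.20 and let-7a-5p at 0.18. Over the whole list of 17 let-7 arms, 2 were lower and 0 higher past the thresholds (9.63% and 10.7% over all miRNAs), with a median of 0.20 against 0.02 over all miRNAs. let-7e, let-7f and miR-98 were singled out after their values were seen, and reads of members that differ by few bases can be assigned to each other. G and C make up 31.8% of let-7f-5p and of miR-98-5p, 36.4% of let-7a-5p and 45.5% of let-7b-5p. They make up 40.9% of let-7e-5p, let-7c-5p and let-7d-5p, which stood above 0, and also of let-7i-5p, which stood below it.

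**Figure D3:**
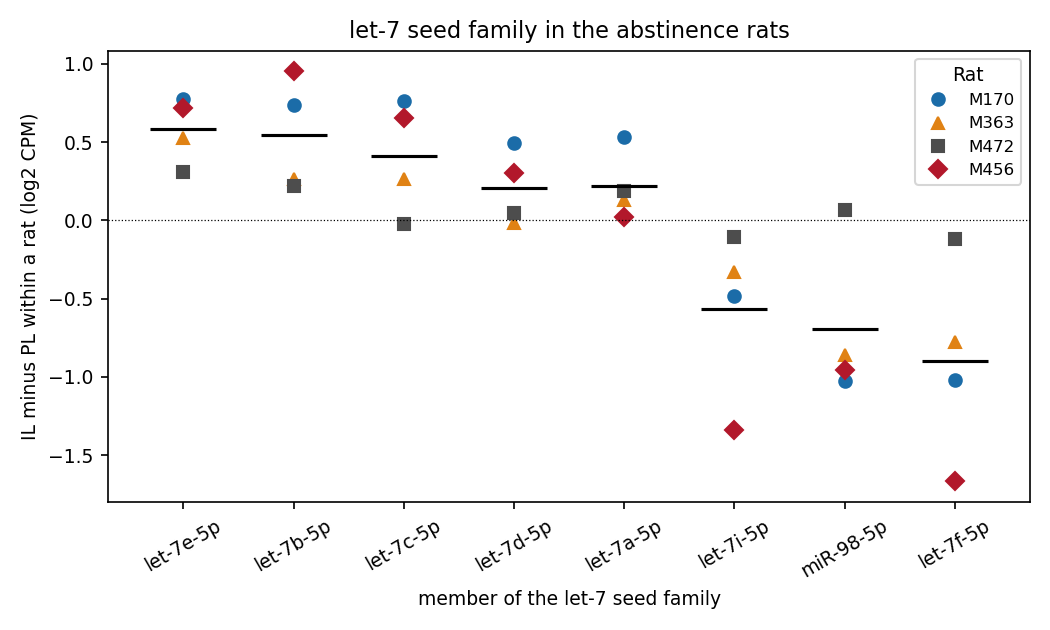
The vertical axis gives IL minus PL within a rat in log2 CPM for the 8 miRNAs of the let-7 seed family, with 1 point per abstinence rat and a bar at the mean. The bars run from above 0 for let-7e-5p to below 0 for let-7i-5p, miR-98-5p and let-7f-5p.

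Base composition differed between the miRNAs higher and those lower in the IL. RefSeq gave a mature sequence for 411 of the 457 miRNAs. The median content of G and C was 61.9% in the 45 of 49 higher miRNAs with a sequence, 43.2% in the 42 of 44 lower ones and 50% in the 411. A content of at least 55% was found in 33 of the 45 and in 0 of the 42, and in 118 of the 411. A content under 45% was found in 3 of the 45 and in 23 of the 42, and in 115 of the 411. Pearson's r between GC content and the difference was taken across the 194 miRNAs with a sequence and a mean of at least 5 log2 CPM. These miRNAs share libraries and are not replicates. The value of r was 0.56 in M170, 0.60 in M363, 0.24 in M472 and 0.51 in M456. In the withdrawal rats r lay between 0.47 and 0.70. In the naive rats it was −0.26 in M157, −0.67 in M378, 0.56 in M476 and 0.62 in M480. When the GC trend of each library was removed, 50 of the 411 miRNAs passed the thresholds (28 higher and 22 lower), and 28 of these were among the 93. Of the miRNAs of lowest p that have a sequence, miR-501-3p, miR-23b-5p, miR-653-3p, miR-664-2-5p, miR-433-3p, miR-27b-5p, miR-146b-5p, miR-195-5p, miR-29a-5p and miR-22-5p still passed. In the same fit miR-128-1-5p (0.56), miR-125a-3p (0.50), miR-1249 (0.46), miR-760-3p (0.24), miR-325-5p (−0.54), miR-186-5p (−0.32), miR-26a-5p (−0.33) and miR-384-5p (−0.55) did not, nor did the abundant miR-128-3p (−0.51), while let-7c-5p (0.79) then did. With the log2 total count as a covariate, 20 of 457 passed, 18 of them among the 93. miR-23b-5p, miR-760-3p, miR-433-3p, miR-195-5p, miR-186-5p, miR-26a-5p, miR-384-5p, miR-344b-2-3p and miR-128-3p were among those that did not. The part of base composition and depth in the differences was not tested beyond these values, and depth and area cannot be told apart where the PL library was the deeper in each rat.

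**Figure D4:**
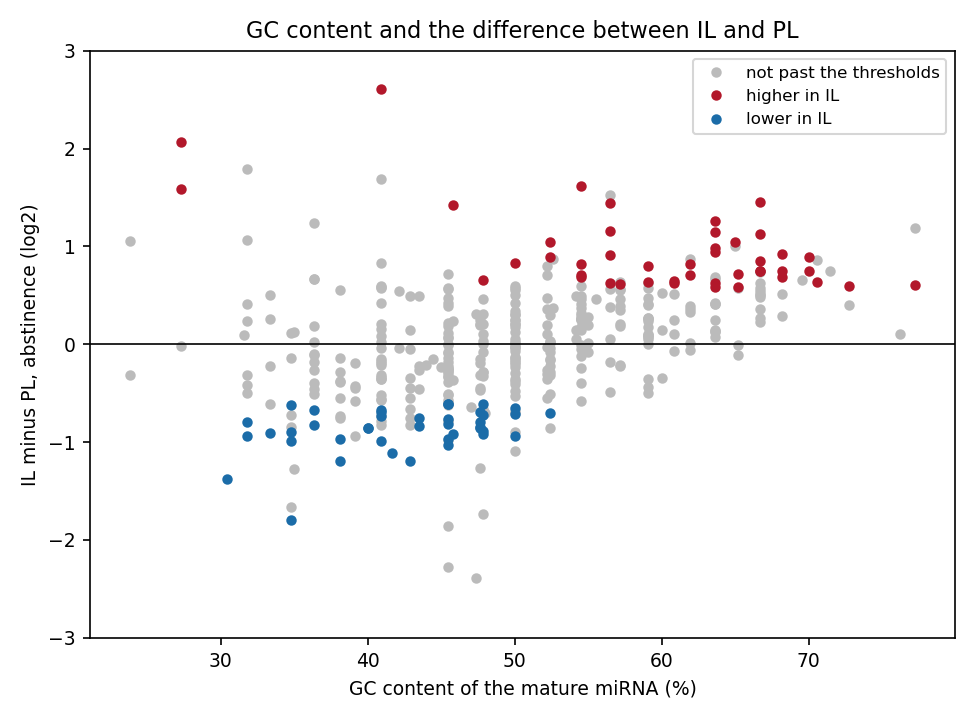
The horizontal axis gives the GC content of the mature miRNA in percent and the vertical axis the log2 fold change of IL over PL in abstinence, with 1 point for each of 410 miRNAs (miR-29a-5p lies outside the axis). The miRNAs higher in the IL past the thresholds lie mostly to the right and those lower lie to the left, at medians of 61.9% and 43.2%.

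The same contrast was computed in the other rats, to set the abstinence values beside rats with and without cocaine. At withdrawal, 160 miRNAs (35%) passed the study's thresholds between IL and PL and 147 (32.2%) had an adjusted p under 0.05 by edgeR. In naive rats 2 (0.438%) passed the thresholds, 3 had an unadjusted p under 0.05 and none an adjusted p under 0.05. The 93 miRNAs of the abstinence comparison had the abstinence sign in 89, 88, 89 and 82 cases in the withdrawal rats M153, M366, M172 and M154, with a median difference in that direction of 0.64 to 1.12 in log2 CPM. In the naive rats they had it in 15 cases in M157, 7 in M378, 73 in M476 and 87 in M480. The naive rats were thus divided, 2 against 2. The SD of the differences over the 216 miRNAs was 0.41 to 0.52 in the naive rats, above that of M472. Across the same 216 miRNAs, r between the profiles of 2 abstinence rats ranged from 0.00 to 0.69 over 6 pairs. It ranged from 0.10 to 0.93 between an abstinence and a withdrawal rat over 16 pairs, and from −0.74 to 0.79 between an abstinence and a naive rat.

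The difference between IL and PL was then tested between groups. Against naive rats, 35 miRNAs (7.66%) passed the study's thresholds for the change in the difference, 27 of them with a higher value in abstinence, 37 had an unadjusted p under 0.05 and 0 had an adjusted p under 0.05 by edgeR, by limma-voom and by DESeq2. Scaling changed that split: with DESeq2's size factors in edgeR, 19 of 34 were higher. The lowest p belonged to miR-128-1-5p, whose difference was −0.04, −1.17, −0.52 and 0.46 in the naive rats against 1.17, 0.79, 0.25 and 1.96 in abstinence. Its change was 1.31 (SE 0.39, adjusted p = 0.48). miR-207 was higher in the IL of all 4 abstinence rats, by 1.70, 1.99, 1.03 and 1.09, and stood at 0.01, −1.31, −0.56 and −0.21 in the naive rats. The groups did not overlap, and the change was 2.14 (SE 0.70, adjusted p = 0.48), but this miRNA was taken for its low p in these rats. It rested on 11 to 16 counts in the IL and 3 to 7 in the PL. miR-501-3p (1.02), miR-23b-5p (1.16) and miR-3572 (2.23) completed the 5 of lowest p. These 3 no longer passed the thresholds without M170, at 0.77, 0.78 and 1.70. With the depth covariate miR-128-1-5p alone of the 5 still passed.

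Against withdrawal, 12 miRNAs (2.63%) passed the thresholds, 13 had an unadjusted p under 0.05, and 0 an adjusted p under 0.05 by edgeR, limma-voom or DESeq2. miR-382-3p, of the Dlk1-Dio3 domain, differed by −1.84, −1.84, −0.70 and −3.11 in the withdrawal rats and by −0.30, 1.67, 0.49 and 0.71 in abstinence. The ranges did not overlap, with a change of 2.24 (SE 0.78, adjusted p = 0.911), and it too was taken for its low p. miR-137-3p, a neuronal miRNA linked to synaptic genes, was lower in the IL of every withdrawal rat (−1.85, −2.14, −1.84 and −1.33) and stood at −0.74, 0.20, 0.01 and 0.30 in abstinence, a change of 1.58 (SE 0.57, adjusted p = 0.911). miR-106b-5p changed by 1.18. Without M456 none of these 3 passed the thresholds, at 1.74, 1.02 and 0.79, and miR-106b-5p did not without M170 (1.02) or M472 (0.92) either. Both arms of miR-187, which is far more abundant in the NAc, changed by a similar size: miR-187-5p by −1.23 and miR-187-3p by −1.22 (adjusted p = 0.911 for both).

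The position of the IL and PL relative to the NAc was described with lists set from the naive rats alone, in which 94 miRNAs were higher and 52 lower in the NAc than in both cortical areas by at least 2-fold. In abstinence, 24 of the 94 accumbens-enriched miRNAs were past the thresholds on the lower side in the IL and 2 on the higher side (9.63% and 10.7% over all miRNAs), with a median of −0.53. Of the 52 cortex-enriched miRNAs, 18 were higher and 1 was lower, with a median of 0.54. The accumbens-enriched median was −0.87 in M170, −0.45 in M363, −0.11 in M472 and −0.40 in M456. It was −1.12, −1.31, −0.83 and −1.01 in the withdrawal rats and 0.34, 0.67, −0.43 and −0.73 in the naive rats M157, M378, M476 and M480. The same 2 naive rats thus had the opposite sign again. With the GC trend removed, the medians of the lists were −0.20 and 0.29 in abstinence. Whether NAc tissue or other neighbouring tissue in a dissected piece took part in this was not tested.

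**Figure D5:**
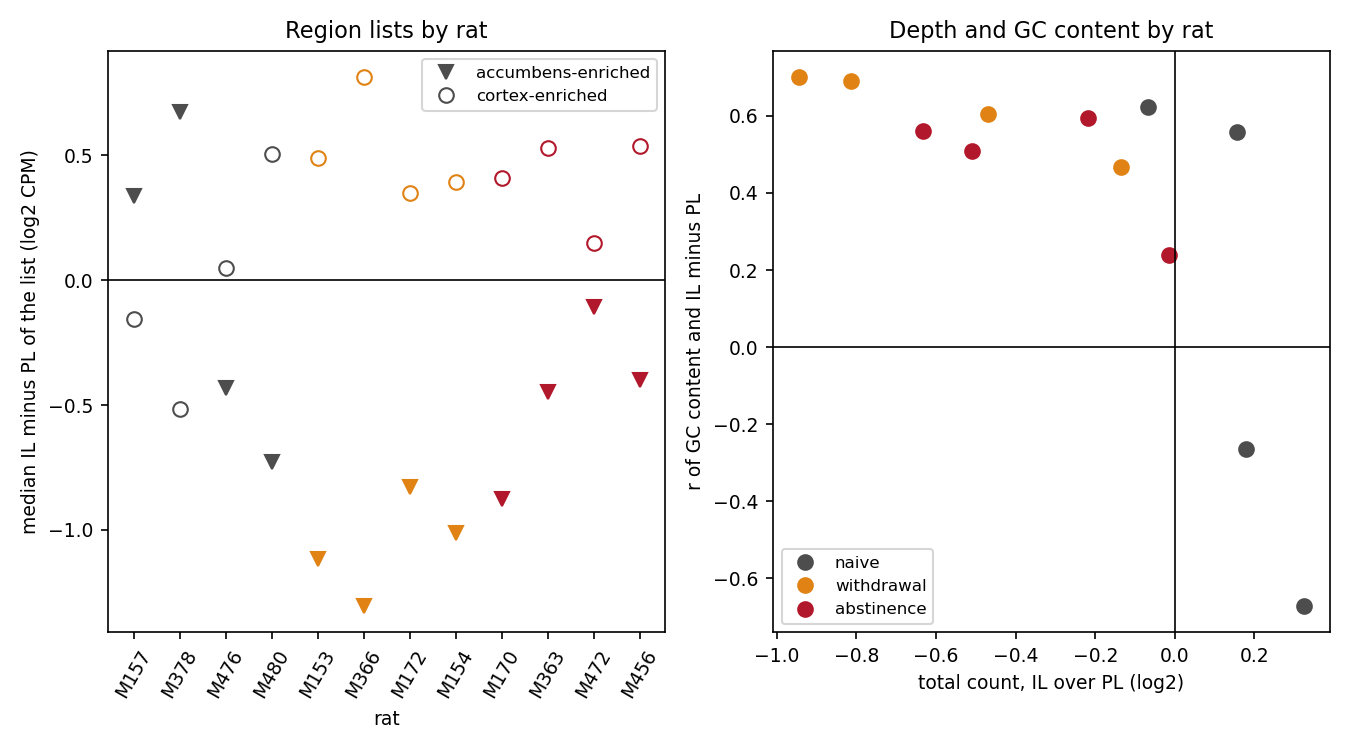
The left panel gives the median IL minus PL in log2 CPM of the accumbens-enriched (triangles) and cortex-enriched (circles) miRNAs for each of the 12 rats, coloured by group as in the right panel. The right panel sets the correlation of GC content with IL minus PL against the log2 ratio of the IL to the PL total, and M157 and M378, at −0.26 and −0.67, lie below 0.

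The lists of cell type markers were read beside the share over all miRNAs, 10.7% higher and 9.63% lower. Of 29 neuron-enriched miRNAs tested, 1 was higher and 4 were lower in the IL past the thresholds (median 0.11), the lower ones being miR-128-3p, miR-9a-5p (−0.89), miR-218a-5p (−0.97) and miR-132-5p (−0.61). Of the arms of miR-132 and miR-212, which neuronal activity induces through CREB, only miR-132-5p passed, and miR-132-3p stood at −0.02, miR-212-5p at −0.14 and miR-212-3p at 0.27. Of 6 vascular miRNAs (median −0.62), 1 was lower and 0 higher, the lower one being the endothelial miR-126a-3p, at 10.04, 10.22, 10.96 and 9.66 log2 CPM in the IL and 11.59, 10.996, 11.004 and 11.43 in the PL, a log2 fold change of −1.03 (SE 0.41, adjusted p = 0.13). The summed level of the 6 was 1565 to 4185 CPM in the IL and 3351 to 5851 CPM in the PL. The other 5 were not past the thresholds, namely miR-126a-5p (−0.73) and the smooth-muscle miRNAs miR-143-3p (−0.51), miR-143-5p (0.36), miR-145-5p (0.19) and miR-145-3p (−0.83). The part of vessels in the other results was not tested. None of the 4 immune, 2 oligodendrocyte, 8 choroid plexus and ependymal, 12 epithelial and sensory, or 4 muscle miRNAs passed the thresholds. The leukocyte miRNAs miR-142-3p and miR-223-3p had at most 7 counts in any of the 8 libraries. The 2 oligodendrocyte miRNAs were the arms of miR-338 alone, and miR-219a-5p was not among the counted miRNAs. The median difference of the 2 arms was 1.12 in M170, −1.03 in M363, −0.51 in M472 and −0.52 in M456. miR-200a-3p and miR-449a-5p had at most 4 and 9 counts in any of the 8 libraries, so such members could hardly pass.

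In the Dlk1-Dio3 domain, 5 of 24 miRNAs near Meg3 were higher and 1 was lower (median 0.11), and 3 of 58 in the stretch from miR-379 to miR-410 were higher and 5 lower (median −0.08), beside 10.7% higher and 9.63% lower over all miRNAs. The higher members of the first stretch were miR-433-3p, miR-770-3p, miR-770-5p (0.69), miR-540-3p and miR-1188-5p, and the lower one was miR-434-5p (−0.89). miR-770-5p was at 8.16, 7.41, 7.72 and 7.81 log2 CPM in the IL and 7.28, 7.12, 7.39 and 6.78 in the PL, without overlap. In the second stretch, miR-379-5p (−0.85), miR-411-5p, miR-411-3p, miR-495 and miR-376b-5p were lower. Of the 10 tested arms of miR-187, miR-7 and miR-135, 3 were lower and 0 higher (median −0.67, beside 9.63% lower and 10.7% higher over all miRNAs), led by miR-135a-5p at −1.37 (SE 0.56, adjusted p = 0.13).

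The study named 23 miRNAs in the IL and 7 in the PL that differed between abstinence and naive rats, and since it chose them on these same libraries they are no independent evidence of direction. Of the 23, the IL level exceeded the PL level past the thresholds for 6 and was under it for 9, beside 10.7% and 9.63% over all miRNAs. miR-935 was among the higher, at 7.09, 7.31, 7.17 and 7.22 log2 CPM in the IL and 6.75, 6.51, 6.67 and 6.45 in the PL. Its 4 IL values lay within a narrow range above all PL values, including those of M472. Among the 7 named in the PL, 3 were higher in the IL, miR-128-1-5p, miR-501-3p and miR-664-2-5p, and 0 were lower.

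Of the 8 most abundant miRNAs, miR-128-3p alone passed the thresholds. It did not pass without M170 (−0.54) or M456 (−0.49), nor with the abstinence libraries only (−0.64). miR-328a-3p stood at 15.85, 16.04, 15.69 and 16.20 log2 CPM in the IL and 15.43, 15.62, 15.37 and 15.27 in the PL, all IL values above all PL values, with a log2 fold change of 0.56 (SE 0.21, adjusted p = 0.112) that missed the fold threshold. It passed with the 8 libraries only (0.64) and without M472 (0.59). miR-127-3p, an imprinted miRNA of the Dlk1-Dio3 domain, stood at 0.26, miR-129-5p at 0.20 and miR-125b-5p at 0.02. The level of a miRNA in such libraries also carries the ligation bias of its ends. Differences are therefore given between samples for the same miRNA, and the ranking of miRNAs by abundance carries this bias.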

How the data were processed

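Small RNA libraries were made from 3 brain areas of 12 male HS rats and sequenced by the authors, who aligned the reads and counted 723 mature rat miRNAs with the CAP-miRseq workflow on assembly rn6 by the study's methods, while the submitters' processing notes name mRatBN7.2 and rn7. The deposited values are raw counts. The 36 columns were assigned to samples by the labels, and rats were tied across areas by the study's sample list, in which the same animal gave each area (1 naive NAc library was tied to the rat left over).

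Counts were filtered with filterByExpr (at least 10 counts, total 15), which left 457 miRNAs, and scaled by TMM. The main test was edgeR 4.0.16 (quasi-likelihood) in R 4.3.3 on all 36 libraries, with the rat as a block, area terms for each group and the RNA integrity number as covariate, and Benjamini-Hochberg adjustment over 457 miRNAs. SEs of edgeR changes are approximate (the change over the square root of F). The correlation between the IL and PL deviations of the same rat ranged from 0.116 to 0.314 in abstinence. Levels are log2 CPM with a prior count of 0.5. Alternatives used limma 3.58.1 and DESeq2 1.42.0. Exact permutation tests over rats were run for the miRNAs of lowest p between groups and are not printed, since these miRNAs were taken by their p in the same rats. No 2 of the 8 libraries were the same, and let-7a-1-3p and let-7c-2-3p had identical counts throughout. GC content and sequences came from RefSeq for GRCr8, which matched 411 of 457 names.

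Named miRNAs were the 10 of lowest p in each direction past the study's thresholds, the 5 of lowest p in each comparison between groups, the 8 most abundant, other arms of these, members of the study's 2 lists and the most expressed members of each gene list; others were singled out after their values were seen. The members and lists were chosen with earlier results of these data known. Each rat is 1 animal. With the rat as a block, p-values of the main test rest on the spread left within rats after the area terms, pooled over all areas and groups. They do not measure the spread of the difference between IL and PL among the abstinence rats alone. The floor of 3 counts for miR-29a-5p covers counting error in the IL only.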

Additional observations from a re-analysis of the deposited data

Results flagged for a closer look

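Among 35 named miRNAs, the difference between IL and PL of 1 abstinence rat stood apart from the other 3 by Dixon's test, and chance flags about 1 in 20 groups. This was miR-328a-3p in M456, at 0.94 in log2 CPM against 0.42, 0.42 and 0.32 in the other rats, with a gap of 0.84 of the range.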

How the results depend on the processing

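The count of 93 miRNAs past the study's thresholds was 50 of 411 with the GC trend of each library removed, 54 of 216 with a mean of at least 5 log2 CPM and 20 of 457 with the log2 total count as a covariate (the GC and depth settings were chosen after seeing the data), and 40 to 124 when 1 abstinence rat was left out, the lowest without M170. The count of 0 at an adjusted p of 0.05 was 44 with DESeq2, 41 with the IL and PL libraries only, 145 with the 8 libraries only and 0 to 11 when a rat was left out, the highest without M472. Against naive rats, 35 became 18 of 216 with the stricter filter, 11 with the depth covariate and 23 to 58 when a rat was left out (23 without M170 or M456, 58 without M472). Against withdrawal, 12 became 19 of 411 with miRNAs that have a sequence, 22 of 628 without a filter, 1 of 216 with the stricter filter, 19 without RIN and 3 to 28 when a rat was left out (3 without M456, 28 without M170, 19 without M472). The median of the accumbens-enriched list was −0.20 and of the cortex-enriched list 0.29 with the GC trend removed, and the latter 0.32 with the depth covariate. The cause of these changes was not tested. Without the replicate block the naive count was 4 in place of 2, the abstinence count 91 in place of 93 and the withdrawal count 161 in place of 160. The split of the 93, with 52.7% higher in the IL, was 37.0% of 92 without a filter, 40.7% with the stricter filter, 41.7% with the IL and PL libraries only, 64.2% of 67 with the abstinence libraries only and 27.5% without M170, so the balance of directions is not fixed by these data. Direction under the alternatives was checked for the 10 miRNAs of lowest p in each direction and the 8 most abundant. It was also checked for the 5 of lowest p in each comparison between groups. None of these that passed the thresholds changed direction in an alternative that tested it. The other miRNAs named were not checked in this way. Depth limits miR-29a-5p, miR-653-3p and miR-207, which had few counts.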
